A study of Bos taurus with 20 samples.

Results

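STAT3 (ENSBTAG00000021523), STAT5A (ENSBTAG00000009496) and STAT5B (ENSBTAG00000010125) were followed in 20 whole bovine conceptuses, each sequenced as 1 library from total RNA depleted of ribosomal RNA. They are 3 of the 27607 genes counted, chosen by identifier because their proteins carry interleukin signals, and all 3 passed the filter on low counts that left 14875 genes for testing. The embryos had been made by fertilisation in vitro and were given recombinant bovine interleukin 6 (IL6) at 100 ng/ml, or its carrier, on day 5. The exposure lasted until day 7.5, the day on which blastocysts were taken for transfer. The age at which the conceptuses were recovered is not given in the sources used here. The libraries are from whole conceptuses classed by shape, 12 ovoid and 8 tubular. Of the ovoid ones, 6 were controls (3 males and 3 females) and 6 had been given IL6 (2 males and 4 females). Of the tubular ones, 4 were controls (3 males and 1 female) and 4 had been given IL6 (2 males and 2 females). The comparison asks whether RNA of these signal transducers differed between IL6 and control conceptuses after the exposure had ended, and between ovoid and tubular shapes.

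STAT proteins are latent transcription factors of the cytoplasm. A cytokine bound to its receptor activates Janus kinases, which phosphorylate a tyrosine of the STAT protein, and the paired STAT proteins then enter the nucleus and bind DNA. IL6 acts through its receptor and the shared subunit gp130 mainly on STAT3, and STAT5A and STAT5B are closely related proteins best known for carrying prolactin and growth hormone signals. The activity of a STAT protein is set largely by phosphorylation, which RNA counts do not measure. The conceptus holds the embryo proper and its extraembryonic membranes, and in cattle it passes from an ovoid to a tubular and then a filamentous form before it attaches to the uterus. In libraries of whole conceptuses, fewer cells of a type and less RNA per cell cannot be told apart.

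The 3 genes lie side by side on chromosome 19 of the assembly ARS-UCD1.2, in the order STAT5B, STAT5A, STAT3, within 172.6 kb. STAT5B runs from 42319170 to 42357910 on the minus strand, with 19 merged exon blocks of 4918 nucleotides in all. STAT5A runs from 42395221 to 42416545 on the plus strand, with 20 exon blocks of 3971 nucleotides. STAT3 runs from 42417949 to 42491771 on the minus strand, with 25 exon blocks of 4651 nucleotides. Only 1403 bases separate the annotated ends of STAT5A and STAT3, while 37.3 kb separate STAT5B from STAT5A. No other annotated gene overlaps any of the 3 spans, so the unstranded counting did not mix them with an antisense partner in the annotation. The only other gene annotated between them, ENSBTAG00000052763 (42387164 to 42390885), had 1 count over the 20 libraries. Reads that fit STAT5A and STAT5B equally well could be lost or misplaced in the counting, so the split between these closely related genes is less certain than their sum.

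One library stood apart before any comparison was made. Ovoid control replicate 3 had 329666 counts assigned to genes, with a median Spearman correlation across genes of 0.761 with the other libraries. The other 19 libraries had 2298491 to 13940103 counts and correlations of 0.921 to 0.960. Mitochondrial genes took 0.514% of its counts and 1.38% to 3.67% of theirs. The comparisons of the 3 genes below are given with and without it. Each sample title begins with a code of unstated meaning, named the title code below. Controls carry c201, c5036 or c8086, and IL6-treated conceptuses carry c6186 or c9007, so treatment and title code cannot be told apart. Nothing in the labels says whether conceptuses of one code share a dam, a sire or a recovery, and p-values measure the spread between conceptuses. The files do not name genes, so defining markers of the conceptus tissues and the other genes of the pathway were not analysed here.

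All 3 genes were expressed at low to middling levels. Levels in transcripts-per-million (TPM), which divide each count by exon length and can be compared between genes, averaged 3.30 ± 1.88 for STAT5B, 2.92 ± 1.91 for STAT3 and 1.15 ± 0.617 for STAT5A (SD, n = 19, without ovoid control replicate 3). The means of STAT5B and STAT3 differed by less than the SD of either, which is a spread between conceptuses. The 2 genes were not tested against each other within libraries. Over these 19 conceptuses mean STAT5B was above mean STAT3 in both control groups and below it in both IL6 groups. Among ovoid IL6 conceptuses STAT5B was below STAT3 in each of title code c6186 but not in the c9007 pair. That pair had 2.82 and 2.37 TPM of STAT5B against 1.19 and 1.67 of STAT3. STAT5A was the lowest of the 3. Among 24632 genes with at least 1 count, these means stood at percentiles 47.9, 46.8 and 38.2. Many of those genes did not pass the filter on low counts. Among genes that passed it without ovoid control replicate 3, the percentiles were 33.1, 30.3 and 15.2, by counts not divided by length. The values rest on few molecules, since a single library held 7 to 146 counts of STAT5B, 12 to 108 of STAT3 and 5 to 39 of STAT5A.

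Ovoid control replicate 3 was the highest of the 20 libraries for all 3 genes. In CPM (counts-per-million, scaled by the library's normalisation factor), which compare one gene between libraries, STAT3 stood at 225.2 there against a median of 5.59 in the other 5 ovoid controls, 40.3-fold higher. STAT5A stood at 64.3 CPM against 2.06, 31.2-fold higher, and STAT5B at 99.4 CPM against 7.84, 12.7-fold higher. These levels came from 77, 22 and 34 counts, where the median of the other ovoid controls would have given 1.91, 0.706 and 2.68 at that depth. The exact Poisson 95% interval of the STAT3 level was 177.7 to 281.4 CPM, which covers counting error only. In this library 592 of the 14875 tested genes (3.98%) were at least 10-fold above the median of the other ovoid controls, computed on CPM plus 1, and the 3 genes stood at percentiles 98.6, 98.0 and 96.4 of that fold. The library was the highest of the 20 for 3474 genes (23.4%).

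**Figure D1:**
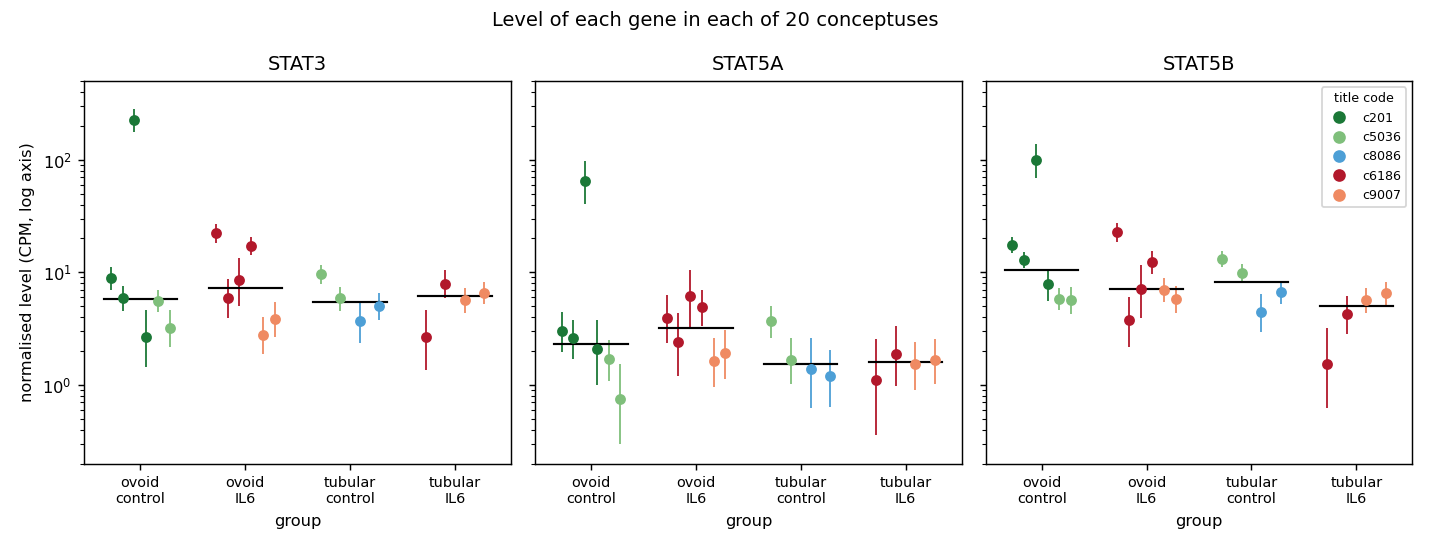
Normalised level of STAT3, STAT5A and STAT5B in each conceptus, in counts-per-million on a log axis, by shape and treatment. Points are single conceptuses coloured by title code, vertical bars are exact Poisson 95% intervals of the count and horizontal lines are group medians; the single point far above the rest in each panel is ovoid control replicate 3, at 225.2, 64.3 and 99.4 CPM.

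STAT3, the main transducer of the IL6 signal, showed overlapping levels in all 4 groups. Ovoid controls had a lowest value of 2.68, a median of 5.77 and a highest of 225.2 CPM, and without replicate 3 the highest was 8.94. Ovoid IL6 conceptuses ranged from 2.79 to 22.1 CPM with a median of 7.21. The pair at 22.1 and 17.2 CPM lay above every other library but ovoid control replicate 3, and both carry title code c6186. Tubular controls measured 9.60, 5.87, 3.66 and 4.98 CPM and tubular IL6 conceptuses 2.65, 7.91, 5.67 and 6.60 CPM, so that the tubular groups covered nearly the same range. Groups without any overlap in CPM, in either direction, were found for 4.05% of the tested genes between IL6 and control tubular conceptuses, for 0.215% between the ovoid ones, and between shapes for 0.296% among controls and 0.739% among IL6 conceptuses. Smaller groups separate more readily by chance, so shares from groups of unlike size cannot be set against each other. Leaving out ovoid control replicate 3, STAT3 averaged 2.18 ± 1.03 TPM in ovoid controls (SD, n = 5), 4.01 ± 2.95 in ovoid IL6 (SD, n = 6), 2.56 ± 1.17 in tubular controls (SD, n = 4) and 2.59 ± 1.02 in tubular IL6 conceptuses (SD, n = 4). With it the ovoid control mean was 12.9 ± 26.2 TPM (SD, n = 6).

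STAT5A was low in every group. Ovoid controls ranged from 0.749 to 64.3 CPM with a median of 2.33, and to 3.02 without replicate 3, while ovoid IL6 conceptuses ranged from 1.63 to 6.13 with a median of 3.18. Tubular controls measured 3.67, 1.68, 1.37 and 1.2 CPM and tubular IL6 conceptuses 1.10, 1.90, 1.52 and 1.67 CPM. The highest values outside ovoid control replicate 3 were again ovoid IL6 conceptuses of title code c6186, at 6.13 and 4.94 CPM. Mean levels were 0.971 ± 0.414 TPM in ovoid controls without replicate 3 (SD, n = 5), 1.64 ± 0.753 in ovoid IL6 (SD, n = 6), 0.984 ± 0.605 in tubular controls (SD, n = 4) and 0.823 ± 0.179 in tubular IL6 conceptuses (SD, n = 4).

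STAT5B, which had the highest mean TPM of the 3 in both control groups once ovoid control replicate 3 was left out, had a lowest value of 5.67, a median of 10.4 and a highest of 99.4 CPM in ovoid controls, and a highest of 17.6 without replicate 3. Ovoid IL6 conceptuses ranged from 3.74 to 22.8 CPM with a median of 7.05. Tubular controls measured 13.2, 9.82, 4.43 and 6.64 CPM and tubular IL6 conceptuses 1.54, 4.27, 5.67 and 6.52 CPM. The first of these tubular IL6 conceptuses was the lowest of the 20 for STAT5B, from 7 counts, with an exact Poisson 95% interval of 0.621 to 3.18 CPM. Mean levels were 3.87 ± 1.98 TPM in ovoid controls without replicate 3 (SD, n = 5), 3.67 ± 2.34 in ovoid IL6 (SD, n = 6), 3.42 ± 1.63 in tubular controls (SD, n = 4) and 1.93 ± 0.948 in tubular IL6 conceptuses (SD, n = 4). The tubular IL6 mean was the lowest, and its values overlapped those of tubular controls.

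No difference between IL6 and control conceptuses was detected for any of the 3 genes. In ovoid conceptuses the log2 fold change of IL6 against control was -1.49 ± 1.0 for STAT3 (SE, edgeR adjusted p = 0.744), -1.12 ± 0.85 for STAT5A (SE, edgeR adjusted p = 0.789) and -1.06 ± 0.67 for STAT5B (SE, edgeR adjusted p = 0.723). All 3 signs turned without ovoid control replicate 3. STAT3 was then higher with IL6 by 0.96 ± 0.49 (SE) on the log2 scale, with a 95% interval of -0.08 to 2.0 and an edgeR adjusted p of 0.534. STAT5A was higher by 0.73 ± 0.45 (SE, edgeR adjusted p = 0.597) and STAT5B by 0.10 ± 0.45 (SE, edgeR adjusted p = 0.954). The edgeR test called 0 of the 14875 genes in this comparison at an adjusted p under 0.05 (0%), with 1241 genes (8.34%) at an unadjusted p under 0.05. By DESeq2 86 genes were called, with 1489 at an unadjusted p under 0.05. By edgeR, neither the 3 genes' unadjusted p-values with all conceptuses (0.153, 0.204 and 0.133) nor those without replicate 3 (0.0674, 0.120 and 0.828) were under 0.05. By DESeq2, which gave no p for STAT3 with all 20 conceptuses, STAT5B stood at -1.32 ± 0.66 (SE, unadjusted p = 0.0452, DESeq2 adjusted p = 0.474). With replicate 3 left out, DESeq2 put STAT3 at 1.0 ± 0.50 (SE, unadjusted p = 0.0448, DESeq2 adjusted p = 0.416). In that fit 1697 genes had an unadjusted p under 0.05.

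The ovoid IL6 values differed between title codes. Ovoid IL6 conceptuses of c6186 averaged 13.4 ± 7.54 CPM of STAT3 (SD, n = 4), and the pair of c9007 averaged 3.33 ± 0.766 CPM (SD, n = 2). For STAT5A these means were 4.36 ± 1.57 and 1.78 ± 0.213 CPM, and for STAT5B 11.5 ± 8.33 and 6.41 ± 0.855 CPM. With both ovoid control replicate 3 and c9007 left out, the log2 fold change with IL6 was 1.35 ± 0.49 for STAT3 (SE, edgeR adjusted p = 0.124) and 1.03 ± 0.47 for STAT5A (SE, edgeR adjusted p = 0.215). With that library and c6186 left out instead, STAT3 stood at -0.33 ± 0.48 and STAT5A at 0.01 ± 0.59 (SE). The higher STAT3 value of ovoid IL6 conceptuses was thus seen in c6186 and not in c9007. These codes also differed in depth, and code and depth cannot be told apart here. The ovoid c6186 libraries held 2298491 to 5978192 counts, against 8589036 and 10296130 in the c9007 pair. The CPM means were not adjusted for sex, and both of the c9007 pair were female while c6186 held both sexes.

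In tubular conceptuses no difference between IL6 and control was detected either. The log2 fold change was -0.37 ± 1.15 for STAT3, -0.68 ± 1.0 for STAT5A and -0.94 ± 0.82 for STAT5B (SE, edgeR adjusted p = 1.0 for each). Without ovoid control replicate 3, which entered this comparison through the shared estimate of the spread and the term for sex, these became 0.09 ± 0.58, -0.35 ± 0.52 and -0.66 ± 0.54 (SE). The 95% intervals without it ran from -1.14 to 1.32 for STAT3 and from -1.79 to 0.46 for STAT5B on the log2 scale. Differences within those bounds are compatible with the values of these conceptuses. Again edgeR called 0 genes (0%), with 374 (2.51%) at an unadjusted p under 0.05. By DESeq2 the count was also 0. Over both shapes the IL6 effect was -0.93 ± 0.73, -0.90 ± 0.65 and -1.0 ± 0.53 for STAT3, STAT5A and STAT5B (SE, edgeR adjusted p = 0.681, 0.651 and 0.513), against 0.53 ± 0.39, 0.19 ± 0.35 and -0.28 ± 0.36 without ovoid control replicate 3. Here edgeR called 0 genes (0%) with 1591 (10.7%) at an unadjusted p under 0.05. By DESeq2 the count was 143, and STAT5B, not among them, stood at -1.16 ± 0.53 (SE, unadjusted p = 0.0268, DESeq2 adjusted p = 0.288). There 2065 genes had an unadjusted p under 0.05 by DESeq2. The IL6 effect in tubular less that in ovoid conceptuses was 1.13 ± 1.58, 0.45 ± 1.34 and 0.12 ± 1.07 (SE, edgeR adjusted p = 1.0 for each) and took the opposite sign without that library, at -0.88 ± 0.74, -1.08 ± 0.66 and -0.76 ± 0.67. For that difference edgeR called 0 genes (0%), 94 (0.632%) had an unadjusted p under 0.05, and the count by DESeq2 was 0.

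**Figure D2:**
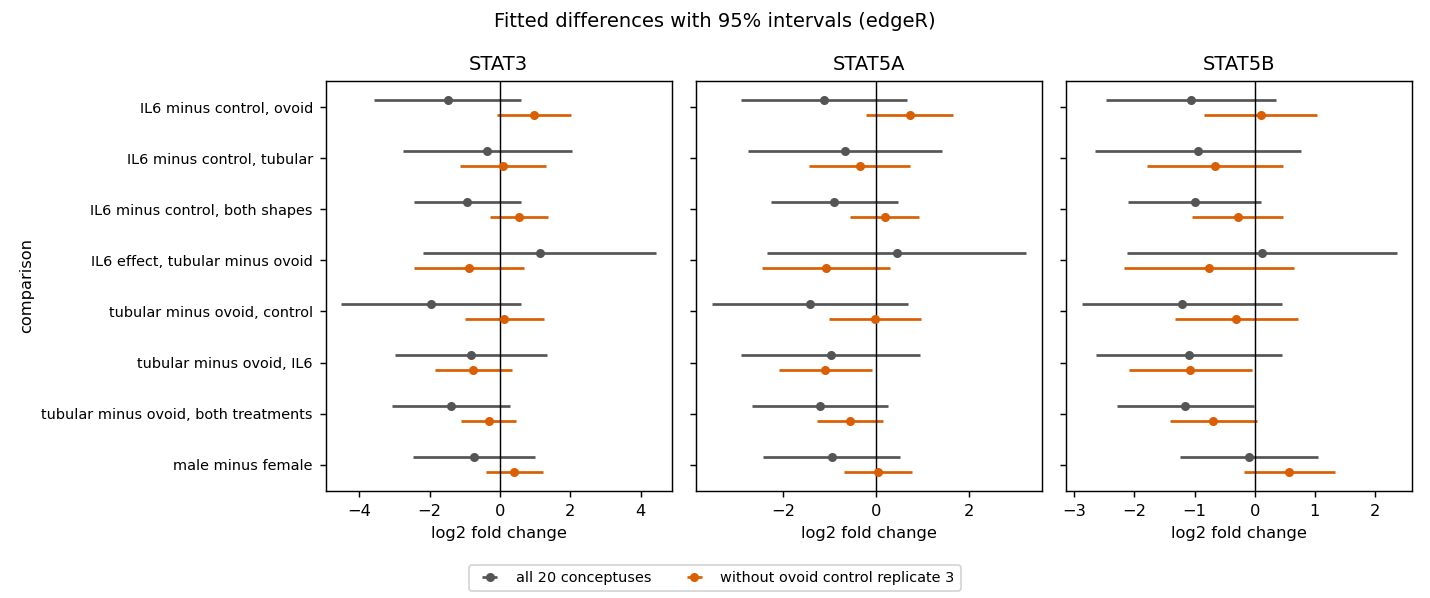
Log2 fold changes with 95% intervals from edgeR for the 8 comparisons, by gene, with all 20 conceptuses (grey) and without ovoid control replicate 3 (orange). Points are the estimates and the vertical line marks no difference; in ovoid conceptuses the IL6 estimate of STAT3 moves from -1.49 to 0.96 when that library is left out.

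Between shapes, every estimate of the 3 genes with all 20 conceptuses lay toward lower levels in tubular conceptuses in the edgeR fit by group, and none of the 3 passed the adjusted threshold. Among controls that direction did not hold within title code, as given below. Among controls the log2 fold change of tubular against ovoid was -1.96 ± 1.22 for STAT3, -1.43 ± 1.01 for STAT5A and -1.21 ± 0.79 for STAT5B (SE, edgeR adjusted p = 1.0 for each). Without ovoid control replicate 3 these were 0.12 ± 0.53, -0.02 ± 0.47 and -0.31 ± 0.48, which are near 0. For shape among controls edgeR called 0 genes (0%), with 244 (1.64%) at an unadjusted p under 0.05.

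Among IL6 conceptuses, where that library has no direct part, tubular conceptuses had the lower estimates in both fits. With all 20 the values were -0.83 ± 1.04, -0.98 ± 0.93 and -1.09 ± 0.74 for STAT3, STAT5A and STAT5B (SE, edgeR adjusted p = 1 for each). Without ovoid control replicate 3 they were -0.76 ± 0.52 (unadjusted p = 0.164), -1.10 ± 0.48 (unadjusted p = 0.0334) and -1.07 ± 0.48 (unadjusted p = 0.0404), with an edgeR adjusted p of 0.851 for each. Other libraries also set these values. With only ovoid IL6 replicate 1 left out, STAT3 stood at 0.0022 and STAT5B at -0.41. With only c6186 left out, and ovoid control replicate 3 kept, the 3 genes stood at 2.09, 0.75 and 0.14, toward higher levels in tubular conceptuses. With both c6186 and ovoid control replicate 3 left out they stood at 0.61, -0.31 and -0.45. Only STAT3 was then higher in tubular conceptuses. In this comparison edgeR called 0 genes (0%) with 417 (2.8%) at an unadjusted p under 0.05, and without the library 706 genes had an unadjusted p under 0.05. Over both treatments STAT5B gave -1.15 ± 0.54 (SE, unadjusted p = 0.0478, edgeR adjusted p = 0.914), and 642 of all genes (4.32%) had an unadjusted p under 0.05, with 0 called (0%). Its value without the library was -0.69 ± 0.34 (SE, edgeR adjusted p = 0.800). STAT3 and STAT5A gave -1.39 ± 0.80 and -1.2 ± 0.70 with all conceptuses and -0.32 ± 0.37 and -0.56 ± 0.34 without it. DESeq2 called 0 genes in each of the 3 comparisons of shape. Among controls it gave STAT5A at -1.75 ± 0.88 (SE, unadjusted p = 0.0468, DESeq2 adjusted p = 1.0). Over both treatments it gave STAT5A at -1.37 ± 0.63 (SE, unadjusted p = 0.0297, DESeq2 adjusted p = 0.728) and STAT5B at -1.25 ± 0.52 (SE, unadjusted p = 0.0174, DESeq2 adjusted p = 0.693). By DESeq2 402 genes among controls and 981 over both treatments had an unadjusted p under 0.05. With ovoid control replicate 3 left out, the unadjusted p by DESeq2 was 0.0238 for STAT5A and 0.0213 for STAT5B among IL6 conceptuses and 0.0392 for STAT5B over both treatments (DESeq2 adjusted p = 0.778, 0.773 and 0.691). In that setting 936 genes among IL6 conceptuses and 1051 over both treatments had an unadjusted p under 0.05.

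Within title codes the shapes did not keep 1 order. In c6186, ovoid conceptuses had higher means than tubular ones for all 3 genes, at 13.4 against 5.28 CPM for STAT3, 4.36 against 1.5 for STAT5A and 11.5 against 2.91 for STAT5B (n = 4 and 2). In c5036, a control code, tubular conceptuses had the higher means, at 7.74 against 4.40 CPM, 2.67 against 1.22 and 11.5 against 5.74 (n = 2 and 2). In c9007 tubular conceptuses were higher for STAT3, at 6.14 against 3.33 CPM, with 1.60 against 1.78 for STAT5A and 6.09 against 6.41 for STAT5B (n = 2 and 2). Higher ovoid means among IL6 conceptuses were therefore seen for all 3 genes in c6186. In c9007 the STAT3 means lay in the opposite order, and those of STAT5A and STAT5B were close. Codes c201 and c8086 hold 1 shape each. These means were not adjusted for sex, which was uneven between shapes in c5036 and c9007. Both tubular conceptuses of c5036 were male and both ovoid ones of c9007 were female, while the sets they are compared with held both sexes. An edgeR fit with title code as a fixed term, which compares shapes within title code, was added after the data were seen. Among controls only c5036 holds both shapes, and the term for sex in this fit draws on all title codes. Its control estimates lay toward higher levels in tubular conceptuses, at 1.18 ± 1.48 for STAT3, 1.75 ± 1.2 for STAT5A and 1.06 ± 1.02 for STAT5B (SE, edgeR adjusted p = 1.0 for each). Without ovoid control replicate 3 these control estimates were 0.64 ± 0.81, 1.27 ± 0.61 and 0.78 ± 0.72 (SE). Among IL6 conceptuses the fixed-term estimates with all conceptuses were -0.25 ± 1.10, -0.59 ± 0.85 and -1.06 ± 0.74 (SE, edgeR adjusted p = 1.0, 0.981 and 0.981). Without ovoid control replicate 3 they were -0.35 ± 0.56, -0.79 ± 0.42 and -1.09 ± 0.50 (SE). For STAT5B the unadjusted p was then 0.0475 and the edgeR adjusted p 0.802, with 738 genes at an unadjusted p under 0.05. By the fixed term with all conceptuses, the IL6 effect in tubular less that in ovoid conceptuses was -1.43 ± 1.80, -2.34 ± 1.43 and -2.12 ± 1.25 (SE, edgeR adjusted p = 1.0 for each), opposite in sign to the fit by group with all conceptuses. The fit by group without ovoid control replicate 3 had the same sign as the fixed term, at -0.88, -1.08 and -0.76. Without that library the fixed-term difference was -2.06 ± 0.72 for STAT5A (SE, unadjusted p = 0.0118, edgeR adjusted p = 1.0) and -1.88 ± 0.87 for STAT5B (SE, unadjusted p = 0.0474, edgeR adjusted p = 1.0). For it edgeR called 0 genes, with 162 at an unadjusted p under 0.05.

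Males and females did not differ detectably. The log2 fold change of males against females was -0.73 ± 0.83 for STAT3, -0.96 ± 0.71 for STAT5A and -0.10 ± 0.55 for STAT5B (SE, edgeR adjusted p = 0.917, 0.846 and 0.996), against 0.41 ± 0.39, 0.04 ± 0.35 and 0.57 ± 0.36 without ovoid control replicate 3, a female. In this comparison edgeR called 8 of the 14875 genes (0.0538%), none of them a STAT gene studied here, and 1023 (6.88%) had an unadjusted p under 0.05.

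The spread between conceptuses was wide with all libraries and closer to that of other genes without the library that stood apart. The biological coefficient of variation, the part of the relative spread beyond counting error, was 0.999 for STAT3, 0.873 for STAT5A and 0.738 for STAT5B over all 20 conceptuses, at percentiles 96.6, 87.7 and 88.5 of genes of like level. Without ovoid control replicate 3 it was 0.540, 0.443 and 0.491, at percentiles 76.4, 47.2 and 72.3. STAT5A then varied as much as genes of its level commonly do. Over the 19 conceptuses the highest level was 8.36 times the lowest for STAT3, 8.19 times for STAT5A and 14.8 times for STAT5B.

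Ratios within a library need no scaling between libraries. STAT5B exceeded STAT5A per exon length in 19 of 20 conceptuses, by a median of 2.91-fold, the exception being an ovoid IL6 conceptus of c6186 at 0.927-fold. The log2 ratio of STAT5B to STAT5A, with 0.5 added to each count, averaged 1.95 ± 0.45 in ovoid controls without replicate 3 (SD, n = 5), 1.06 ± 0.87 in ovoid IL6 (SD, n = 6), 1.79 ± 0.44 in tubular controls (SD, n = 4) and 1.04 ± 0.70 in tubular IL6 conceptuses (SD, n = 4). It was 0.31 in ovoid control replicate 3. By title code the mean was 1.92 in c201 without that library, 1.93 in c5036, 1.72 in c8086, 1.55 ± 0.22 in c9007 (SD, n = 4) and 0.72 ± 0.83 in c6186 (SD, n = 6). The ratio was lowest in c6186, and IL6 and control values overlapped in both shapes.

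The ratio of STAT3 to the sum of STAT5A and STAT5B was the only one of the 3 levels and 2 ratios whose values did not overlap between IL6 and control conceptuses, and only in tubular ones. Its log2 value was -0.81, -0.94, -0.67 and -0.63 in the tubular controls and -0.11, 0.31, -0.34 and -0.31 in the tubular IL6 conceptuses, so that every IL6 value lay above every control value. The means were -0.76 ± 0.14 and -0.11 ± 0.30 (SD, n = 4 each), which is a ratio 1.57-fold higher with IL6. Mean STAT3 itself was nearly the same, at 2.56 TPM in tubular controls and 2.59 in tubular IL6 conceptuses. The STAT5 means were lower with IL6, at 1.93 against 3.42 TPM for STAT5B and 0.823 against 0.984 for STAT5A. The same ratio was taken for other genes. Of 14873 genes, 508 (3.42%) were also separated in tubular conceptuses with the higher ratio to the STAT5 sum under IL6, against 7 (0.0471%) with the lower. The median shift over these genes was 0.74, and STAT3, at 0.65, stood at percentile 40.9, below the shift of most genes. In ovoid conceptuses the ratio overlapped, as it did for nearly all genes (0.0403% separated with IL6 higher and 0.0% with IL6 lower). These larger groups separate less readily by chance than the tubular ones. The ratio of STAT3 to the STAT5 sum averaged -1.15 ± 0.52 in ovoid controls without replicate 3 (SD, n = 5) and -0.62 ± 0.61 with IL6 (SD, n = 6). Ovoid control replicate 3 had the highest ratio of the 20, at 0.39, and by code the ratio was -0.15 ± 0.34 in c6186 (SD, n = 6) and -0.82 ± 0.62 in c9007 (SD, n = 4).

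**Figure D3:**
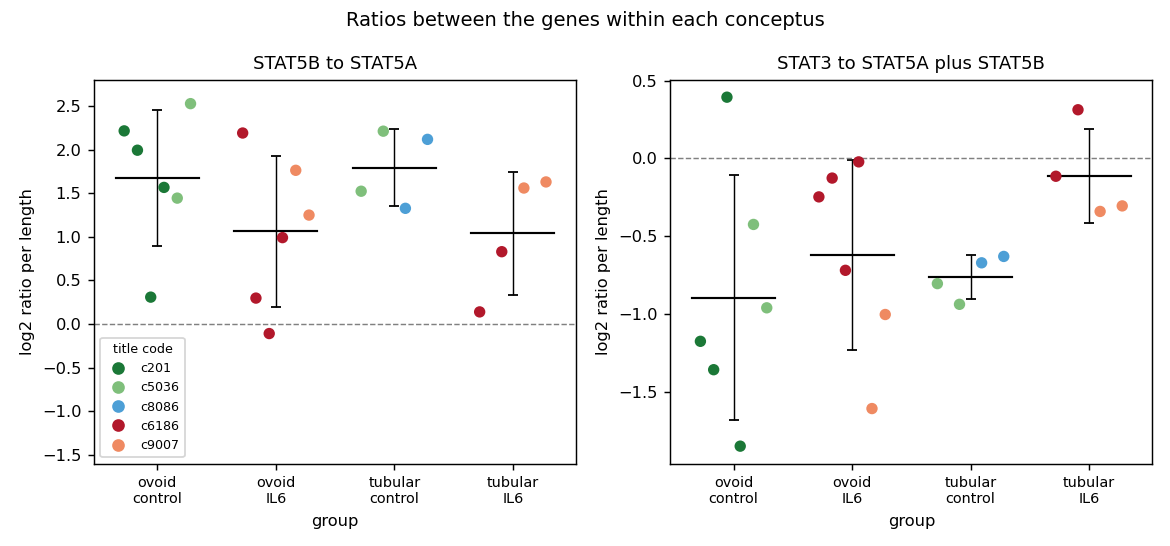
Log2 ratio per exon length of STAT5B to STAT5A (left) and of STAT3 to the sum of STAT5A and STAT5B (right) in each conceptus, by shape and treatment. Points are single conceptuses coloured by title code, horizontal lines and bars are the mean and SD, and the dashed line marks equal levels; on the right, the 4 tubular IL6 conceptuses (-0.34 to 0.31) lie above the 4 tubular controls (-0.94 to -0.63).

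The 3 genes varied together across conceptuses. Over the 19 conceptuses without ovoid control replicate 3, log2 CPM of STAT3 and STAT5A had a Pearson r of 0.755 and a Spearman rho of 0.768 (permutation p = 1.80e-04 and 2.20e-04, adjusted over 3 relations 5.40e-04 and 6.60e-04). For STAT3 and STAT5B r was 0.667 and rho 0.572 (permutation p = 0.00188 and 0.0121, adjusted p = 0.00282 and 0.0121). For STAT5A and STAT5B r was 0.598 and rho 0.646 (permutation p = 0.00675 and 0.00344, adjusted p = 0.00675 and 0.00516). Without the 2 conceptuses farthest from the median of the first gene, r was 0.667, 0.505 and 0.700, and with all 20 conceptuses it was 0.926, 0.853 and 0.827. These p-values treat conceptuses of 1 title code as independent. After the mean of each title code was subtracted, r was 0.723, 0.895 and 0.746, and within the 6 conceptuses of c6186 it was 0.756, 0.983 and 0.788. The points of a pair share library depth and normalisation.

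Set against all genes, the pairing ranked high but was not the highest. Of 12663 other genes with a mean of at least 1 on the log2 CPM scale, STAT5A was the 72nd most like STAT3 by Pearson r over the 19 conceptuses, with 99.4% of the genes lower, and STAT5B was the 239th. For STAT5A, 98.4% of the genes were less like it than STAT5B was. The median r of STAT3 with all these genes was -0.03. After subtraction of title code means STAT5B ranked 23rd for STAT3 and 25th for STAT5A, with 99.8% of genes lower in both cases, while STAT5A ranked 795th for STAT3. The gene most like STAT3 was ENSBTAG00000011613 (chromosome X, 64140186 to 64236961, r = 0.894), the gene most like STAT5A was ENSBTAG00000021617 (chromosome 4, 102660085 to 102709502, r = 0.829) and the gene most like STAT5B was ENSBTAG00000021118 (chromosome 26, 14416061 to 14419635, r = 0.929), each over 19 conceptuses and chosen as the highest r. With ovoid control replicate 3 included these became 0.855, 0.912 and 0.05, so the last match did not extend to that library.

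**Figure D4:**
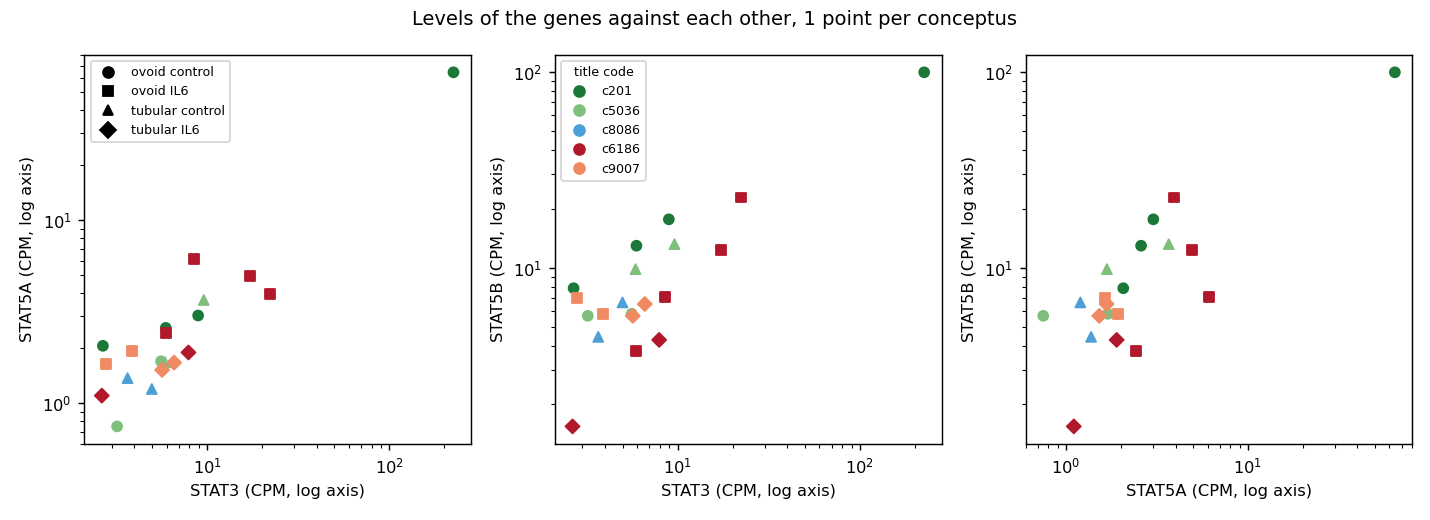
Levels of the 3 genes against each other in counts-per-million on log axes, 1 point per conceptus, with symbols for the groups and colours for title codes. Conceptuses with more of one gene had more of the other in all 3 panels (r = 0.755, 0.667 and 0.598 over 19 conceptuses), and the point at the upper right of each panel is ovoid control replicate 3.

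Of 60 other genes within 500 kb of the 3, 36 were tested, and edgeR called 0 of them in any of the 8 comparisons. Between IL6 and control ovoid conceptuses the fold change was above 0 for 15 of the 36 and below 0 for 21, with a median of -0.08 against 0.02 over all genes, and 3 of them (8.33%) had an unadjusted p under 0.05, against the 8.34% of all tested genes given above. For IL6 in tubular conceptuses it was above 0 for 13 of the neighbours (36.1%, against 50.2% of all genes), with a median of -0.17 against 0.0016. Over both shapes it was above 0 for 12 (33.3%, against 49.5% of all genes), with a median of -0.15 against -0.0040. For shape the medians were 0.01 against 0.0046 among controls and -0.06 against -0.03 among IL6 conceptuses. No test of the neighbours as a group was made.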

How the data were processed

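Paired reads of 150 nucleotides were taken from each of 20 whole bovine conceptuses, as the labels' protocols state. What the authors deposited are raw counts per Ensembl gene from featureCounts 2.0.1 without strand, over exons of the Ensembl 105 annotation of ARS-UCD1.2, per the file headers. The submitters' processing notes list HISAT2, SAMtools and Picard without settings. The 3 genes were found by identifier and had to lie on chromosome 19 within 300 kb of each other. They, the lists and the tests were chosen with earlier results of these data known. None of the 27607 identifiers matched the RefSeq gene table at hand (assembly ARS-UCD2.0), so the 47 other pathway genes and 26 marker genes listed by symbol were not analysed here, and no sequence is shown.

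Groups and sex came from the labels. Genes were kept by the default filter of edgeR 4.0.16 by group. A robust quasi-likelihood fit with TMM factors, 4 group terms and sex was made on all 20 libraries, so that groups share 1 estimate of the spread, with Benjamini-Hochberg adjustment over 14875 genes and 0.05 as the threshold. The standard error is the log2 fold change over the root of F. CPM used TMM factors, and TPM were computed from counts and exon lengths. Log2 CPM for the correlations had a prior count of 2, and permutation p-values used 100000 resamples, two-sided. Named genes are the 3 members and, for each, the gene with the highest Pearson r among genes of mean log2 CPM of at least 1. The script was tested on simulated data. DESeq2 1.42.0, limma 3.58.1 with title code as a random block (consensus correlation 0.15), edgeR with title code as a fixed term, RLE factors, other filters, and fits without each conceptus or title code were the alternatives, run in R 4.3.3 and Python 3.11.15. Library totals ran from 329666 to 13940103 counts. Intervals of counts cover counting error only, and reads carry no molecular identifiers as far as the labels say.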

Additional observations from a re-analysis of the deposited data

Results flagged for a closer look

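Within the ovoid controls 1 conceptus lay far from the other 5 for all 3 genes, by the ratio of its gap from the next value to the range of the group. Replicate 3 stood at 225.18 CPM of STAT3 with the next highest at 8.94, at 64.336 CPM of STAT5A with the next at 3.02, and at 99.429 CPM of STAT5B with the next at 17.6. These 3 came from 20 sets of values examined, and about 1 in 20 was taken as the rate of flags by chance alone. The 3 are 1 library, the shallowest of the 20, whose profile over all genes also stands apart, so they are not independent of each other. Its part in each comparison is given there by the values with and without it.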

How the results depend on the processing

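Over 879 values for the 3 genes under other settings, 0 passed the adjusted threshold, and the lowest adjusted p was 0.124 (STAT3 in ovoid IL6 conceptuses without c9007 and ovoid control replicate 3). In 122 values the sign changed, and in 38 of the 720 values that kept ovoid control replicate 3. TMM against RLE factors, no low-count filter, library totals alone, no sex term, fits on the groups compared alone and ratios without a pseudocount changed no sign. Mean TPM without mitochondrial genes moved by less than 1 SD in each group. DESeq2 on all 20 conceptuses also changed no sign, and gave no p for STAT3 in any comparison. The cause was not tested for any of these changes. Depth limits the precision, with at most 146 counts of any of the 3 genes in a library. The labels give no replicate numbers shared between groups, so conceptuses were not paired by replicate. Ovoid and tubular groups of 1 treatment share title codes (c5036, c6186 and c9007), which were fitted as a random block and as a fixed term. The fixed term allows no comparison of IL6 with control. Fits without title codes c6186 or c9007 and ovoid control replicate 3, DESeq2 or the block without it, and title code as a fixed term were chosen after the data were seen.

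With title code as a random block, the log2 values that changed sign were 0.44 (STAT3), 0.55 (STAT5A) and 0.052 (STAT5B) for IL6 in ovoid, 0.21 (STAT3) and 0.11 (STAT5A) for IL6 over both shapes, -0.46 (STAT3), -0.89 (STAT5A) and -0.90 (STAT5B) for the shape difference of the IL6 effect, 0.19 (STAT3) and 0.14 (STAT5A) for shape among controls and 0.17 (STAT3) and 0.34 (STAT5B) for sex. Without title code c201, the log2 values that changed sign were 1.09 (STAT3), 1.37 (STAT5A) and 0.71 (STAT5B) for IL6 in ovoid, 0.54 (STAT3) and 0.47 (STAT5A) for IL6 over both shapes, -1.10 (STAT3), -1.81 (STAT5A) and -1.47 (STAT5B) for the shape difference of the IL6 effect, 0.34 (STAT3), 0.75 (STAT5A) and 0.41 (STAT5B) for shape among controls and 0.20 (STAT3) and 0.38 (STAT5B) for sex. With DESeq2 without ovoid control replicate 3, the log2 values that changed sign were 1.0 (STAT3), 0.74 (STAT5A) and 0.13 (STAT5B) for IL6 in ovoid, 0.094 (STAT3) for IL6 in tubular, 0.55 (STAT3) and 0.20 (STAT5A) for IL6 over both shapes, -0.91 (STAT3), -1.09 (STAT5A) and -0.79 (STAT5B) for the shape difference of the IL6 effect, 0.12 (STAT3) for shape among controls and 0.43 (STAT3), 0.068 (STAT5A) and 0.59 (STAT5B) for sex. With that block and without ovoid control replicate 3, the log2 values that changed sign were 0.56 (STAT3), 0.64 (STAT5A) and 0.11 (STAT5B) for IL6 in ovoid, 0.27 (STAT3) and 0.16 (STAT5A) for IL6 over both shapes, -0.58 (STAT3), -0.96 (STAT5A) and -0.98 (STAT5B) for the shape difference of the IL6 effect, 0.23 (STAT3) and 0.19 (STAT5A) for shape among controls and 0.35 (STAT3), 4.0e-04 (STAT5A) and 0.45 (STAT5B) for sex. With title code as a fixed term, the log2 values that changed sign were -1.43 (STAT3), -2.34 (STAT5A) and -2.12 (STAT5B) for the shape difference of the IL6 effect, 1.18 (STAT3), 1.75 (STAT5A) and 1.06 (STAT5B) for shape among controls and 0.47 (STAT3) and 0.58 (STAT5A) for shape over both treatments. With that fixed term and without ovoid control replicate 3, they were -0.99 (STAT3), -2.06 (STAT5A) and -1.88 (STAT5B) for the shape difference of the IL6 effect, 0.64 (STAT3), 1.27 (STAT5A) and 0.78 (STAT5B) for shape among controls, 0.14 (STAT3) and 0.24 (STAT5A) for shape over both treatments and 0.25 (STAT3) and 0.39 (STAT5B) for sex. Without title code c9007 and ovoid control replicate 3, the log2 values that changed sign were 1.35 (STAT3), 1.03 (STAT5A) and 0.27 (STAT5B) for IL6 in ovoid, 0.63 (STAT3) and 0.28 (STAT5A) for IL6 over both shapes, -1.45 (STAT3), -1.51 (STAT5A) and -1.53 (STAT5B) for the shape difference of the IL6 effect, 0.15 (STAT3) and 0.0078 (STAT5A) for shape among controls and 0.17 (STAT3) and 0.49 (STAT5B) for sex. Without title code c6186 and ovoid control replicate 3, the log2 values that changed sign were 0.0097 (STAT5A) for IL6 in ovoid, 0.19 (STAT3) for IL6 in tubular, -0.24 (STAT5A) and -0.10 (STAT5B) for the shape difference of the IL6 effect, 0.084 (STAT3) for shape among controls, 0.61 (STAT3) for shape among IL6, 0.35 (STAT3) for shape over both treatments and 0.54 (STAT3), 0.30 (STAT5A) and 0.79 (STAT5B) for sex. Without title code c5036, the log2 values that changed sign were 0.32 (STAT3) and 0.25 (STAT5A) for IL6 in tubular. Without title code c9007, the log2 values that changed sign were -0.39 (STAT3), -0.47 (STAT5A) and -1.05 (STAT5B) for the shape difference of the IL6 effect. Without title code c8086, the log2 values that changed sign were -0.25 (STAT5A) and -0.44 (STAT5B) for the shape difference of the IL6 effect. Without title code c6186, the log2 values that changed sign were 2.09 (STAT3), 0.75 (STAT5A) and 0.14 (STAT5B) for shape among IL6 and 0.48 (STAT3) for shape over both treatments.

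The number of genes called at an adjusted p under 0.05, 8 for sex and 0 in the other comparisons, moved as follows. With DESeq2 it was 86 for IL6 in ovoid, 143 for IL6 over both shapes and 88 for sex. Without title code c9007, it was 154 for IL6 in ovoid, 344 for IL6 over both shapes and 2 for sex. With DESeq2 without ovoid control replicate 3, it was 155 for IL6 in ovoid, 1 for IL6 in tubular, 389 for IL6 over both shapes, 5 for shape among IL6, 2 for shape over both treatments and 151 for sex. Without title code c9007 and ovoid control replicate 3, it was 783 for IL6 in ovoid, 20 for IL6 in tubular and 2373 for IL6 over both shapes. Without title code c6186 and ovoid control replicate 3, it was 6 for IL6 over both shapes and 146 for sex. With title code as a random block, it was 13 for sex. Without title code c201, it was 3 for sex. Without title code c5036, it was 2 for sex. Without title code c6186, it was 2 for sex. Without title code c8086, it was 3 for sex. With that block and without ovoid control replicate 3, it was 33 for sex. With title code as a fixed term, it was 2 for sex, and 5 without ovoid control replicate 3.

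With each conceptus left out in turn, all sign changes of STAT3 and STAT5A came without ovoid control replicate 3, save that STAT3 was at 0.0022 for shape among IL6 without ovoid IL6 replicate 1. STAT5B changed sign without that library too, and also for the shape difference of the IL6 effect without ovoid IL6 replicate 6 (-0.028), tubular control replicate 3 (-0.22) or tubular IL6 replicate 4 (-0.28), and for sex without ovoid control replicate 6 (0.087), ovoid IL6 replicate 2 (0.0036) or tubular IL6 replicate 1 (0.013). The 11 calls for IL6 in ovoid conceptuses came without ovoid IL6 replicate 5, and the 23 for sex without ovoid control replicate 3. Log2 fold changes of STAT3 ranged from -2.10 to 0.96 for IL6 in ovoid, -0.80 to 0.089 for IL6 in tubular, -1.35 to 0.53 for IL6 over both shapes, -0.88 to 1.67 for the shape difference of the IL6 effect, -2.49 to 0.12 for shape among controls, -1.16 to 0.0022 for shape among IL6, -1.65 to -0.32 for shape over both treatments and -1.38 to 0.41 for sex. Log2 fold changes of STAT5A ranged from -1.48 to 0.73 for IL6 in ovoid, -1.10 to -0.12 for IL6 in tubular, -1.12 to 0.19 for IL6 over both shapes, -1.08 to 1.03 for the shape difference of the IL6 effect, -1.98 to -0.021 for shape among controls, -1.27 to -0.69 for shape among IL6, -1.47 to -0.56 for shape over both treatments and -1.25 to 0.045 for sex. Log2 fold changes of STAT5B ranged from -1.69 to 0.099 for IL6 in ovoid, -1.34 to -0.63 for IL6 in tubular, -1.42 to -0.28 for IL6 over both shapes, -0.76 to 0.53 for the shape difference of the IL6 effect, -1.56 to -0.31 for shape among controls, -1.39 to -0.41 for shape among IL6, -1.33 to -0.68 for shape over both treatments and -0.64 to 0.57 for sex. The number of genes called ranged from 0 to 11 for IL6 in ovoid, 0 to 1 for IL6 over both shapes and 5 to 23 for sex, and was 0 to 0 in the other comparisons. Mean TPM of STAT3 ranged from 2.18 to 15.2 in ovoid control, 3.2 to 4.57 in ovoid IL6, 2.01 to 2.93 in tubular control and 2.26 to 3.06 in tubular IL6. Mean TPM of STAT5A ranged from 0.971 to 5.34 in ovoid control, 1.45 to 1.8 in ovoid IL6, 0.685 to 1.11 in tubular control and 0.763 to 0.903 in tubular IL6. Mean TPM of STAT5B ranged from 3.87 to 8.96 in ovoid control, 2.84 to 4.08 in ovoid IL6, 2.74 to 4 in tubular control and 1.64 to 2.36 in tubular IL6. The log2 ratio of STAT5B to STAT5A ranged from 1.5 to 1.95 in ovoid control, 0.84 to 1.30 in ovoid IL6, 1.65 to 1.95 in tubular control and 0.84 to 1.34 in tubular IL6. The log2 ratio of STAT3 to STAT5A plus STAT5B ranged from -1.15 to -0.71 in ovoid control, -0.74 to -0.42 in ovoid IL6, -0.81 to -0.70 in tubular control and -0.25 to -0.036 in tubular IL6.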
